A study of Mus musculus with 2 samples.

Results

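The nuclear genes of the mitochondrial respiratory chain and ATP synthase were taken as every gene symbol that begins with Nduf, Uqcr, Cox4 to Cox8 or Atp5, a rule that uses names and no measured value. It found 88 of the 23444 gene symbols, and both libraries list all 88. They fell into 36 subunits of complex I, 7 complex I assembly factors (Ndufaf), 8 genes of complex III (Uqcr), 20 of complex IV (Cox, with Ndufa4 and Ndufa4l2) and 17 of complex V (Atp5). Ndufa4 and its paralog Ndufa4l2 carry complex I names and are placed with complex IV, where the Ndufa4 protein is now known to sit. The 13 mitochondrially encoded subunits were not analysed here. Complex II is outside the name rule and is given with the other genes of the pathway.

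The values come from RNA-seq of 2 libraries of macrophages that were grown in culture from bone marrow of mice of the inbred FVB strain. One library was labelled WT (RON proficient) and the other RON TK-/- (RON deficient). RON, encoded by Mst1r, is a receptor tyrosine kinase found on macrophages that binds macrophage stimulating protein, and RON TK-/- mice are known to lack its kinase domain through a germline deletion, so in all cells. By both labels the cells had been given 10 ng/mL of recombinant interleukin-4 over 72 hours. Interleukin-4 is a cytokine that turns macrophages toward alternative (M2) activation, so by its labels the study compares interleukin-4 treated cells with and without the kinase. The marker genes below go against that treatment for the WT-labelled library. The labels do not say whether a library holds cells of 1 animal or of several. With 1 library per group no difference below has a replicate check, no test was run, and each value sets the RON TK-/- labelled library beside the WT-labelled library, and not genotype against genotype.

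The respiratory chain is a set of protein complexes in the inner mitochondrial membrane. Complex I takes electrons from NADH and complex II from succinate, both pass them to coenzyme Q, complex III hands them to cytochrome c, and complex IV gives them to oxygen. Complexes I, III and IV pump protons, and complex V, the ATP synthase, uses the return of those protons to make ATP. Macrophages activated by interleukin-4 are known for sustained oxidative metabolism, and macrophages activated by microbial products and interferon gamma for glycolysis and a broken tricarboxylic acid cycle.

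Levels are in FPKM, read fragments divided by transcript length in kilobases and by library depth, with all rows of a symbol summed. A ratio is log2 of FPKM + 1 in the RON TK-/- labelled library over FPKM + 1 in the WT-labelled library, a scale that understates differences of low genes. Every count of genes 2-fold or 1.5-fold apart is made on this ratio. A fold is the plain quotient of the same 2 FPKM values, with a 95% interval (Clopper-Pearson, from reads estimated from the deposited coverage) that covers counting error only. A gene counts as detected at 1 FPKM or more in either library, which 11288 genes reached, and their median ratio was 0.57. Since no outside scale says where an equal amount lies, each group is also placed relative to that median.

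The labels were checked on marker genes. Estimated depth was 59.8 M and 67.1 M reads, and 9982 and 10911 genes had at least 1 FPKM. All 8 macrophage markers were detected, but not at like levels. In the RON TK-/- labelled library 3 of the 8 were at least 2-fold lower (8.71% of all detected genes) and 1 at least 2-fold higher (25.6%). Cd14 had 1010 FPKM in the WT-labelled library and 33.7 in the other, Fcgr1 26.6 and 3.58, and Mertk 32.5 and 9.68. Itgam had 61.0 and 185 FPKM, and Csf1r 184 and 267. By contrast, 0 of 8 T and NK cell, 0 of 4 B cell, 0 of 5 dendritic cell, 0 of 5 mast cell and eosinophil, and 0 of 5 muscle markers were detected. Of the markers of neutrophils and of red cells and platelets, 1 of 5 and 1 of 7 were detected (S100a8 at 1.44 and 1.75 FPKM, Pf4 at 45.9 and 28.7). Fibroblast markers were detected for 4 of 4 genes (summed 660 and 878 FPKM). In the RON TK-/- labelled library 2 of them were at least 2-fold higher (25.6% of all detected genes). These were Col3a1 (48.5 and 171 FPKM) and Pdgfra (8.93 and 24.3), while Col1a1 had 195 and 250 and Col1a2 had 407 and 433. The part of fibroblast RNA in the results below was not tested. In bulk RNA such as this, fewer cells of a type and less RNA per cell cannot be told apart. The targeted gene Mst1r was listed at 0 in both libraries and checks neither label. Arg1, a gene induced by interleukin-4, had 1.0 FPKM in the WT-labelled library and 5041 in the RON TK-/- labelled library, while the inflammatory cytokine Tnf had 1262 and 0.52. The WT-labelled library thus goes against the interleukin-4 treatment its label states, and activation state, genotype and library cannot be told apart in every comparison that follows.

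Promoters are shown for 2 pairs of genes as examples. The first pair holds the complex I subunits with the highest and the lowest ratio between the libraries, Ndufa6 and Ndufa1. The second pair holds Ndufa4 and its paralog AA467197 (also named Nmes1), whose ratios lay far apart. Each run is the RefSeq sequence of build GRCm38.p6 from 250 bases before to 50 bases after the annotated start, 5′ to 3′ on the gene's strand: Ndufa6 at chr15:82354242-82354541, minus strand, Ndufa1 at chrX:37191189-37191488, minus strand, Ndufa4 at chr6:11907401-11907700, minus strand, and AA467197 at chr2:122637637-122637936, plus strand. Capitals mark matches, on either strand, to the NRF1 motif (GCGC, any base, then TGCGC), the ETS motif CCGGAAG, the YY1 motif AAGATGGC, the Sp1 motif GGGCGG, the TATA motif TATAAA or the kappaB motif.
Ndufa6: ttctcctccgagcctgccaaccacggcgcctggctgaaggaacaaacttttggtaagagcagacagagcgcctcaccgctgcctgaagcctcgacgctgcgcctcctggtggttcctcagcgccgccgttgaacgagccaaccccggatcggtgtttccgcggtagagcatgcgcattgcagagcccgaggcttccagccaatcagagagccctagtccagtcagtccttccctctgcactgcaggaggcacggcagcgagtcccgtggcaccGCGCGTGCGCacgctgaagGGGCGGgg
Ndufa1: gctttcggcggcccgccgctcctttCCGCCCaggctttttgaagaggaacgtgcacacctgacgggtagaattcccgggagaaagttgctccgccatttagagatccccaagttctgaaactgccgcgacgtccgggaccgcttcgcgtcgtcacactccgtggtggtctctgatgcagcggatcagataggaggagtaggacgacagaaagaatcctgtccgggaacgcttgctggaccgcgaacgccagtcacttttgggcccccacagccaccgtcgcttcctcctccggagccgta
Ndufa4: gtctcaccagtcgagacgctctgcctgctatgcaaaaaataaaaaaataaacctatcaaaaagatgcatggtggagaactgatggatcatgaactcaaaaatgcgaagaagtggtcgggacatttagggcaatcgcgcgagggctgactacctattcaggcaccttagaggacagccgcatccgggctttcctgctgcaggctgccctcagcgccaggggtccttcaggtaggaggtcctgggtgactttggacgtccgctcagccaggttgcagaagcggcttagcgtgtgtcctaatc
AA467197: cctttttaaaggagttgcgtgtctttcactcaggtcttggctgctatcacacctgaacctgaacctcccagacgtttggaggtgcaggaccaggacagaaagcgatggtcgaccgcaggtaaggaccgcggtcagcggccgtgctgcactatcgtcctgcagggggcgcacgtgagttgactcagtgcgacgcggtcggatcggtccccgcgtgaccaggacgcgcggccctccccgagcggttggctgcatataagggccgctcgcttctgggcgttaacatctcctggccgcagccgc
Ndufa6 holds 1 NRF1 match and 1 Sp1 match, Ndufa1 holds 1 Sp1 match, and the Ndufa4 and AA467197 windows hold 0 matches to the 6 motifs. A match is a description of the letters, not a bound site. The pair of extremes does not stand for the other subunits: Ndufa5 (ratio 0.19) holds 1 NRF1 match and Ndufb8 (0.84) holds 0. How matches relate to ratios over all members was not tested.

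Transcript levels of the complexes differed in the same order in both libraries except between complexes IV and V. The median gene of complex I subunits had 44.6 FPKM in the WT-labelled library and 69.1 in the RON TK-/- labelled library. Complex III had median levels of 108 and 137 FPKM, complex IV of 150 and 178, and complex V of 121 and 181. The assembly factors, which help to build complex I but do not stay in it, had median levels of 1.39 and 4.14 FPKM. Complex I subunits therefore lay below the other 3 complexes, and assembly factors far below the subunits, in each library. Across the 85 detected members, log2 of FPKM + 1 in one library followed the other closely (Pearson's r = 0.99, Spearman's rho = 0.99), a description across genes that share 2 libraries.

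**Figure D1:**
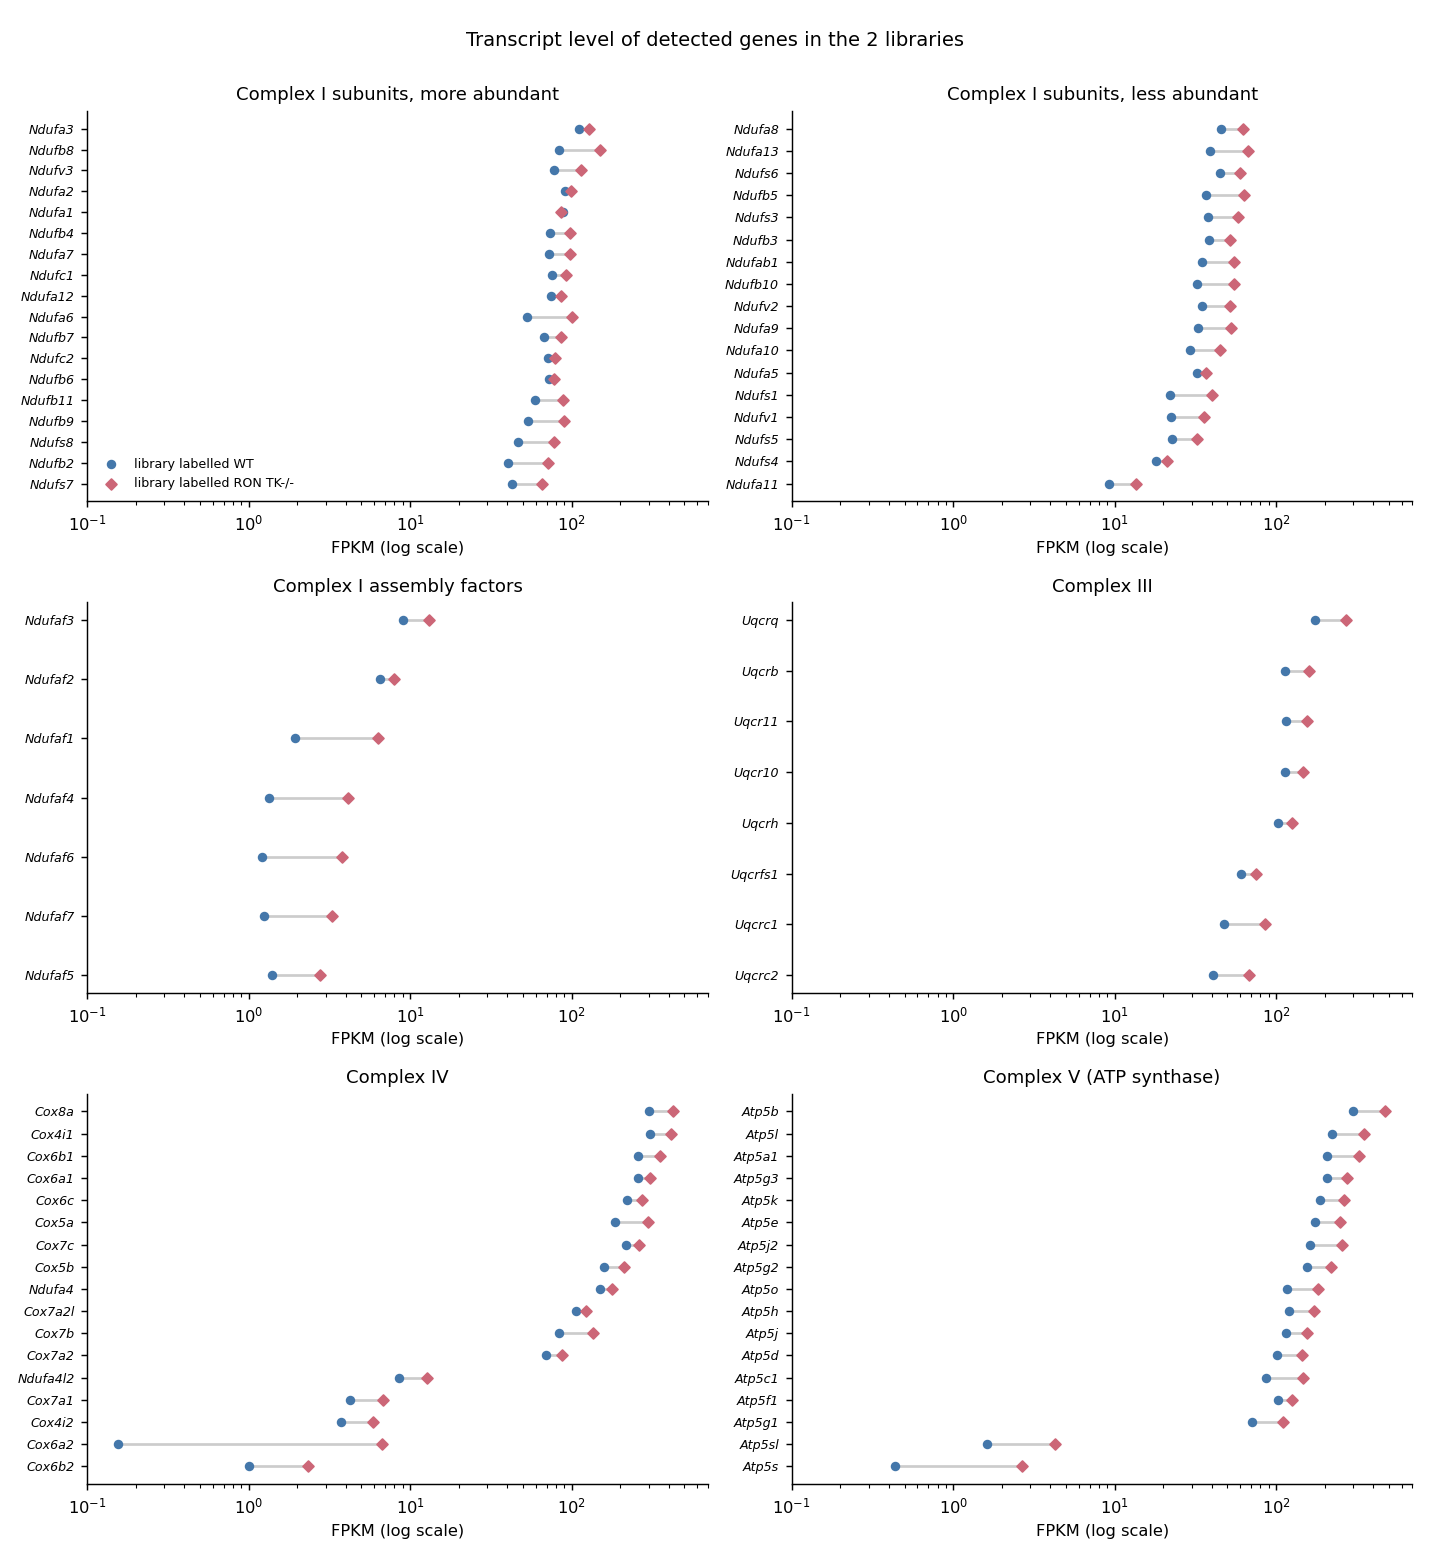
Each panel plots the FPKM (log axis) of detected genes by group (1 complex I subunit is not shown), with circles for the WT-labelled library and diamonds for the RON TK-/- labelled library, joined by a line per gene. The diamond lies to the right of the circle for all genes shown but Ndufa1 as deposited, and the widest gap is that of Cox6a2 (0.155 and 6.75 FPKM).

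As deposited, 84 of 85 detected members had a ratio above 0, against 76.4% of all detected genes, but the median of the members (0.53) was 0.041 below that of all detected genes and 45 of 85 members lay below it, so many signs turn if the libraries are rescaled to a median ratio of 0. By 2-fold or more, 6 of 85 members were apart, against 34.3% of all detected genes. All 6 were higher in the RON TK-/- labelled library, where 25.6% of all detected genes were. At least 2-fold lower were 0 of 85, against 8.71%. The 6 were the assembly factors Ndufaf1, Ndufaf4 and Ndufaf6, the complex IV isoform Cox6a2, and Atp5s and Atp5sl, all at a mean of under 5 FPKM. The count is made on FPKM + 1, and the plain folds of Ndufaf7 (2.63) and Cox6b2 (2.33) also exceed 2. Measured from the median of all detected genes, 1 member (Cox6a2) was at least 2-fold higher and 0 were at least 2-fold lower, where 8.38% and 14.4% of all detected genes were. At 1.5-fold, 37 of 85 members were higher as deposited, a share close to the 48.9% of all detected genes, and 0 were lower, against 12.5%. Measured from the median of all detected genes, 3 were at least 1.5-fold higher and 1 (Ndufa1) was at least 1.5-fold lower, against 19.2% and 22.9%.

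The members lay closer to each other than genes in general. The interquartile range of their ratios was 0.30, against 0.96 for all detected genes. Among the 69 members with a mean of at least 20 FPKM, the median ratio was 0.50 and the interquartile range 0.32. The 2314 detected genes in the same range of levels had a median of 0.27 with an interquartile range of 1.0, and 12.1% of them were at least 2-fold higher, while 0 of the 69 members were. Abundant members thus sat above genes of like level and in a narrower band, although they sat slightly below the median of all detected genes. The 16 members under 20 FPKM had a median ratio of 0.70.

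**Figure D2:**
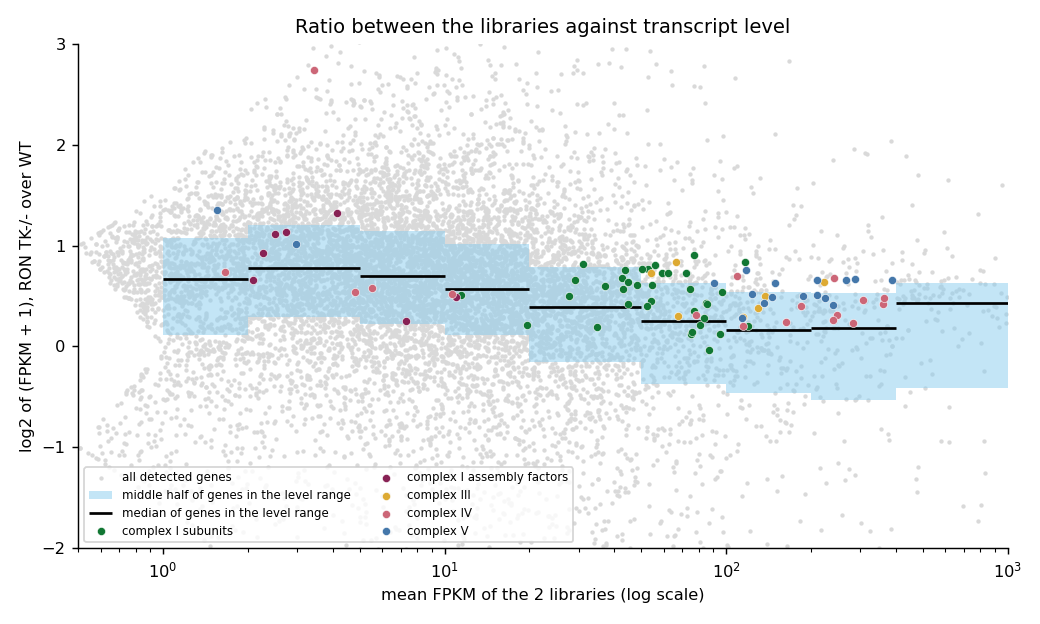
The log2 ratio of FPKM + 1 (RON TK-/- labelled over WT-labelled library) is plotted against mean FPKM (log axis) for all detected genes (grey) and the members (coloured by group), with black lines and blue bands for the median and interquartile range of genes per range of levels. The black line falls from 0.78 at 2 to 5 FPKM to 0.16 at 100 to 200 FPKM (0.43 above 400), and the members above 20 FPKM form a narrow band around 0.50.

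By complex, the median ratio was 0.93 for assembly factors, 0.63 for complex V, 0.55 for complex I subunits, 0.46 for complex III and 0.46 for complex IV. Measured from the median of all detected genes these are 0.36, 0.061, -0.012, -0.10 and -0.11, so complex V lay above it and complexes I, III and IV below it, all within 0.11. Whether a complex lay above genes of like level depended for complex IV on how levels were matched. With genes taken from the full range of mean FPKM of complexes V, I, III and IV, the medians were 0.56, 0.42, 0.21 and 0.56. Complex IV (0.46) lay below that value and the others above theirs. With the interquartile range all 4 complexes lay above. Detected genes within the interquartile range of mean FPKM of complexes V, I, III and IV had median ratios of 0.15, 0.30, 0.24 and 0.42. Without Atp5s and Atp5sl, an alternative chosen after seeing the data, complex V had a median of 0.52 (-0.046 from all detected genes), below complex I subunits, and then all 4 complexes lay below that median. When the libraries themselves were rescaled to a median ratio of 0, the medians of complexes V, I, III and IV all turned negative (-0.028, -0.089, -0.19 and -0.20) and that of the assembly factors stayed positive (0.45). Rescaling divides FPKM before 1 is added, so ratios of abundant genes move by more than the median of all detected genes does. Single genes overlapped between the 4 complexes, and those of complex I ran from -0.04 to 0.91.

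**Figure D3:**
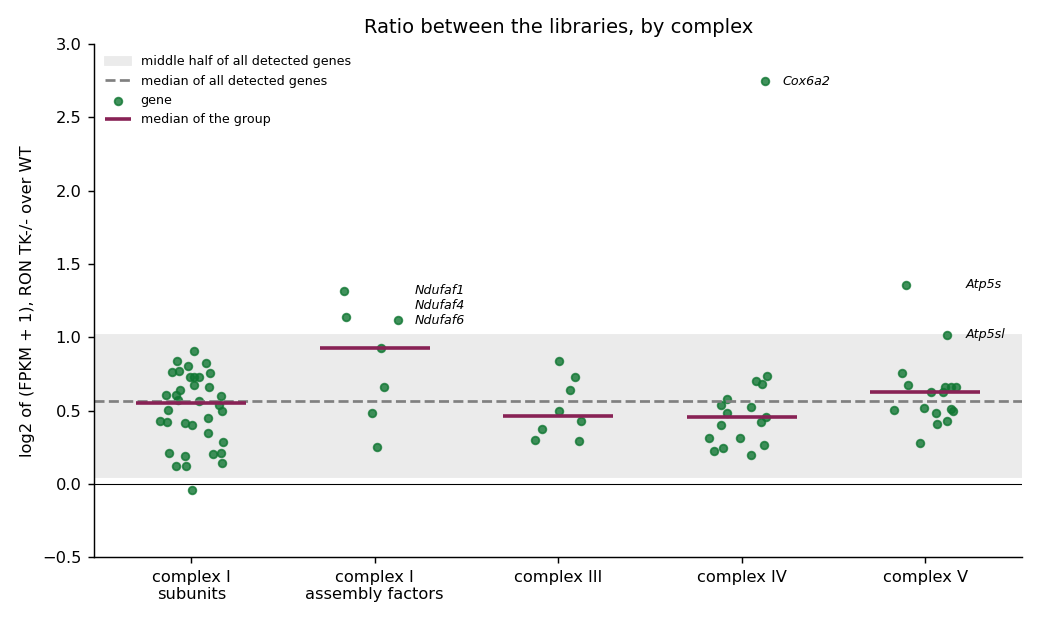
Points give the log2 ratio of FPKM + 1 (RON TK-/- labelled over WT-labelled library) of each detected gene by group, bars the group medians, the dashed line the median of all detected genes (0.57) and the grey band their interquartile range. Medians of the 4 complexes lie within 0.11 of the dashed line as deposited, with complex V above it only while it holds Atp5s and Atp5sl (0.63, and 0.52 without them), the assembly factors lie above it (0.93), and Cox6a2 stands apart at 2.75. With the libraries rescaled to a median ratio of 0 the medians of all 4 complexes are below 0.

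Complex I has a hydrophilic arm that oxidises NADH and carries electrons along iron-sulfur clusters, and a membrane arm that pumps protons. Its 7 nuclear encoded core subunits hold the redox centres and are shared with the bacterial enzyme. Ndufv1, which binds NADH and flavin, had 22.2 FPKM in the WT-labelled library and 35.8 in the RON TK-/- labelled library, and its partner Ndufv2 had 34.6 and 51.8. Ndufs1, the largest iron-sulfur subunit, had 22.2 and 39.9 FPKM, a fold of 1.80 (1.73 to 1.88). The quinone module subunits Ndufs3, Ndufs7 and Ndufs8 had 38.0, 43.1 and 46.5 FPKM in the WT-labelled library and 58.3, 66.0 and 78.0 in the other. All 7 core genes were thus higher in the RON TK-/- labelled library as deposited, by similar amounts (ratios 0.57 to 0.82), and 7 of 7 lay above the median of all detected genes. After rescaling the libraries to a median ratio of 0, Ndufv2, Ndufs3 and Ndufs7 turned below 0 (-0.077, -0.042 and -0.044).

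Accessory subunits, which stabilise complex I around the core, were more varied. The 29 accessory genes had a median ratio of 0.45, with 18 below the median of all detected genes, against 0.66 for the core. Ndufa6, a subunit of the hydrophilic arm, had 53.3 FPKM in the WT-labelled library and 100.9 in the RON TK-/- labelled library, a fold of 1.89 (1.79 to 2.0) and the highest ratio of any complex I subunit. Ndufb8, a subunit of the distal membrane arm that is often used as an antibody marker of assembled complex I, had 83.4 and 149.9 FPKM, a fold of 1.80 (1.72 to 1.87). At the other end, Ndufa1 had 88.4 and 86.1 FPKM, a fold of 0.97 (0.92 to 1.03), and was the 1 member with a ratio below 0 (23.6% of all detected genes had one). Ndufb6 had 72.0 and 78.4 FPKM and Ndufa2 had 91.1 and 99.2, each a fold of 1.09. Ndufa3, the most abundant subunit by its mean, had 111 and 129 FPKM, and Ndufv3 had 78.4 and 114.

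The spread among complex I subunits was wider than counting error allows for single genes, since the interval of Ndufa6 (1.79 to 2.0) and that of Ndufa1 (0.92 to 1.03) lie far apart. Ndufa1 lies at chrX:37187589-37191238 and Ndufa6 at chr15:82350139-82354291 (mm10, as the tables give the loci). By position in the enzyme, the median ratio was 0.49 for 10 genes of the NADH module, 0.61 for 5 of the quinone module, 0.47 for 10 of the proximal and 0.65 for 10 of the distal membrane arm. These modules overlapped, and Ndufa6 and Ndufa2, at opposite ends, both belong to the NADH module. A 2-transcript gene of that module, Ndufv3, also differed in transcript use: the longer form (1579 bases), which carries an extra coding exon, took 5.04% of its FPKM in the WT-labelled library and 13.3% in the RON TK-/- labelled library.

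Ratios of members rose with transcript length and fell with mean level. Core subunits are encoded by longer transcripts (median 1540 bases) than accessory ones (561 bases). Across the 85 detected members the ratio and the transcript length had a Spearman's rho of 0.46 (Pearson's r = 0.34), and across the 36 complex I subunits 0.44 (r = 0.39), whereas across all 11288 detected genes rho was -0.03 (r = -0.02). The ratio and the mean level had a Spearman's rho of -0.37 (r = -0.49) across the 85 members. Across the 36 complex I subunits this was -0.25 (r = -0.18). These are descriptions across genes of 2 shared libraries. Detected genes of 500 to 600 bases had a median ratio of 0.48 and those of 1200 to 2000 bases 0.61, and the members in these ranges had 0.42 and 0.67. The part of length or of level in the difference between core and accessory genes was not tested.

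The complex I assembly factors form a low and uneven group. Ndufaf1, a chaperone of the membrane arm intermediate, had 1.95 FPKM in the WT-labelled library and 6.36 in the RON TK-/- labelled library, a fold of 3.26 (2.74 to 3.90). Ndufaf4 had 1.34 and 4.14 FPKM, a fold of 3.09 (2.71 to 3.54), and Ndufaf6 had 1.20 and 3.78, a fold of 3.14 (2.44 to 4.07). Ndufaf7, a methyltransferase, had 1.24 and 3.27 FPKM, a fold of 2.63 (2.19 to 3.17). These 4 genes were all under 2 FPKM in the WT-labelled library and above 3 FPKM in the other. Ndufaf5, a hydroxylase that modifies Ndufs7, was intermediate, with 1.39 and 2.78 FPKM (fold 2.0, 1.71 to 2.34).

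The remaining pair were the most abundant and the least different. Ndufaf3, which partners Ndufaf4, had 9.01 and 13.0 FPKM, a fold of 1.45 (1.30 to 1.61). Ndufaf2, which acts late, when the NADH module is added, had 6.55 and 7.99 FPKM, a fold of 1.22 (1.03 to 1.44). Each of the 5 factors with the higher ratios lay above the median of all detected genes, and Ndufaf2 and Ndufaf3 lay below it.

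The median ratio of the assembly factors was 0.38 above that of complex I subunits, and its direction depended on how low values were treated. Detected genes in the assembly factors' range of mean levels (4568 genes) had a median ratio of 0.73, of which 33.8% were at least 2-fold higher, and 3 of 7 assembly factors were. Genes in the subunits' range (4341 genes) had a median of 0.42. The assembly factors at 0.93 and the subunits at 0.55 thus both stood above the median of genes of like level. The difference turned negative with a pseudocount of 5 (-0.11) and with only genes of at least 5 FPKM (-0.066), which leaves Ndufaf1, Ndufaf2 and Ndufaf3. It was 0.76 with a pseudocount of 0.1, 0.54 after median rescaling and 0.60 after TPM rescaling.

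Complex III contains 2 large core proteins and the Rieske iron-sulfur protein beside small accessory subunits. The core proteins Uqcrc1 and Uqcrc2 had 47.3 and 40.6 FPKM in the WT-labelled library and 85.5 and 67.8 in the RON TK-/- labelled library, folds of 1.81 (1.75 to 1.87) and 1.67 (1.61 to 1.73). The Rieske protein gene Uqcrfs1 had 60.5 and 74.8 FPKM, a fold of 1.24 (1.19 to 1.28). The hinge protein gene Uqcrh, whose product helps cytochrome c to dock, had 103 and 126 FPKM, and Uqcrq, the most abundant of the complex, had 174 and 271. Uqcrb had 114 and 161 FPKM and Uqcr11 had 116 and 157. Among the 8 genes Uqcrc1 and Uqcrc2 thus had the highest ratios and Uqcrh and Uqcrfs1 the lowest. The Rieske protein gene had a lower ratio than those of the core proteins. The other nuclear redox subunit, cytochrome c1, is encoded by Cyc1, a gene outside the name rule. It had 44.9 and 70.3 FPKM, a ratio of 0.64, so a low ratio was not shared by both redox genes. As deposited 3 of 8 genes were at least 1.5-fold higher (Uqcrc1, Uqcrc2 and Uqcrq), against 48.9% of all detected genes. After rescaling to a median ratio of 0, Uqcrq (-0.019), Uqcrb (-0.16), Uqcr11 (-0.22), Uqcrfs1 (-0.35) and Uqcrh (-0.37) were below 0.

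Complex IV, where cytochrome c is oxidised, held some of the most abundant members. Its 11 ubiquitous subunits had a median ratio of 0.40, and 9 of 11 lay below the median of all detected genes. Their median of mean levels was 241 FPKM, and detected genes at 200 to 400 FPKM had a lower median ratio (0.18). Cox8a had 303 FPKM in the WT-labelled library and 424 in the RON TK-/- labelled library, Cox4i1, the regulatory subunit that binds ATP, had 307 and 413, and Cox6b1, which joins the monomers of the dimer, had 258 and 356. Cox7b had 83.2 and 136 FPKM, a fold of 1.63 (1.58 to 1.69), and Cox5a had 185 and 297. Cox6a1 had 260 and 305 FPKM, a fold of 1.17 (1.14 to 1.21), and Cox7a2l, which links complex IV to complex III in supercomplexes, had 107 and 123, a fold of 1.15 (1.11 to 1.19). Cox7b and Cox5a were the 2 ubiquitous subunits above the median of all detected genes, and Cox7a2l was the lowest of the complex. After rescaling to a median ratio of 0, Cox7a2l, Cox6a1, Cox4i1, Cox6b1 and Cox8a were all below 0 (-0.46, -0.43, -0.24, -0.20 and -0.18).

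Several complex IV subunits have a ubiquitous isoform and one restricted to heart and skeletal muscle, lung or testis. The restricted forms were minor in both libraries. Cox4i2, the hypoxia-responsive lung isoform, had 3.74 and 5.88 FPKM, which is 1.20% and 1.40% of the summed FPKM of Cox4i1 and Cox4i2. Cox7a1, the heart and muscle isoform, had 4.23 and 6.81 FPKM, or 2.34% and 3.15% of its family of 3 with Cox7a2l and the ubiquitous Cox7a2 (69.8 and 86.9 FPKM). Cox6b2, the testis isoform, had 1.0 and 2.32 FPKM, a fold of 2.33 (1.51 to 3.68), although its reads lay on different transcript rows in the 2 libraries. Cox7b2, Cox8b and Cox8c were listed at 0 in both. The ubiquitous forms Cox4i1, Cox6a1, Cox6b1, Cox7b and Cox8a held at least 97.8% of the summed FPKM of their families in each library.

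Cox6a2, the heart and muscle isoform of Cox6a1, was the exception in size. It had 0.155 FPKM in the WT-labelled library and 6.75 in the RON TK-/- labelled library, a fold of 43.6 (18.9 to 130) that rests on about 5 and 271 estimated reads. Its ratio of 2.75 was above that of 98.8% of all detected genes. The gene lies at chr7:128205435-128206366 and shares 69 bases with the integrin gene Itgad on the opposite strand, which had 0.34 and 2.8 FPKM, and with no strand information their reads cannot be told apart there. Muscle markers (Ckm, Acta1, Mb, Myh7, Tnnt2) summed to 0 FPKM in the WT-labelled library and 0.088 in the RON TK-/- labelled library. Cox6a2 still made up only 2.17% of the Cox6a family in the RON TK-/- labelled library, against 0.06% in the other, so the summed Cox6a level (260 and 311 FPKM) was set by Cox6a1.

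The Ndufa4 family differed most in its composition. Ndufa4, the complex IV subunit, had 150 FPKM in the WT-labelled library and 178 in the RON TK-/- labelled library, a fold of 1.19 (1.14 to 1.23) that becomes a ratio of -0.41 after rescaling to a median ratio of 0. Ndufa4l2, its hypoxia-induced paralog, had 8.54 and 12.7 FPKM. AA467197, a paralog outside the name rule that is known as a gene of inflammatory macrophages and the source of miR-147, had 314 FPKM in the WT-labelled library and 6.05 in the RON TK-/- labelled library, a ratio of -5.48. It was more abundant than Ndufa4 in the former and far less abundant in the latter. Its share of the summed FPKM of the 3 genes was 66.5% and 3.08%, and that of Ndufa4 was 31.7% and 90.4%. The summed level of the family was 472 and 197 FPKM. As deposited, it was the only one of the 8 isoform families whose sum was lower in the RON TK-/- labelled library. The sums were not compared after rescaling. The inflammatory genes that stand apart between the libraries (Tnf, Nos2) move with AA467197, and their part in it was not tested. Hif1a, which encodes the hypoxia-responsive factor, had 153 and 42.2 FPKM, while the hypoxia-linked isoforms Ndufa4l2 and Cox4i2 were higher in the RON TK-/- labelled library as deposited and at -0.077 and -0.0075 after rescaling to a median ratio of 0.

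**Figure D4:**
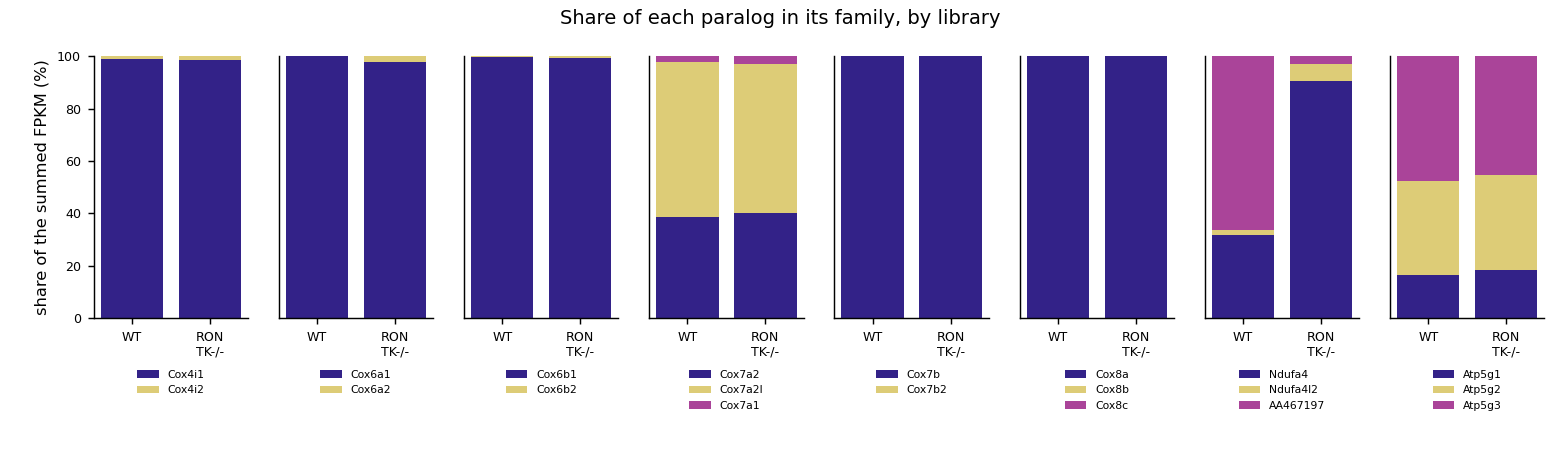
Stacked bars give the share (%) of each paralog in the summed FPKM of its family, 1 bar per library and 1 panel per family. All families but that of Ndufa4 have nearly the same makeup in both libraries, and AA467197 takes 66.5% of the Ndufa4 family in the WT-labelled library and 3.08% in the RON TK-/- labelled library.

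Complex V consists of the catalytic F1 head, a ring of c subunits in the membrane that turns with the proton flow, and the peripheral stalk that holds the head still. Atp5b, the catalytic beta subunit, had 300 FPKM in the WT-labelled library and 475 in the RON TK-/- labelled library, and was the most abundant member by its mean. Atp5a1, the alpha subunit, had 207 and 327 FPKM, a fold of 1.58 (1.56 to 1.60) that is the same as that of Atp5b (1.58, 1.56 to 1.60). Atp5c1, the gamma shaft, had 87.0 and 147.7 FPKM, a fold of 1.70 (1.65 to 1.75). The alpha and beta subunits, which alternate in the head in equal numbers, thus had the same fold within counting error, and after rescaling to a median ratio of 0 they lay next to 0 (-0.00040 for Atp5a1 and 0.00036 for Atp5b).

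The stalk had a lower median ratio than the head, with overlap. Atp5f1, the stalk subunit b, had 103 and 125 FPKM, a fold of 1.22 (1.19 to 1.25), and the 4 stalk genes had a median ratio of 0.46 against 0.66 for the 5 head genes, although the stalk gene Atp5o (0.63) lay above the head genes Atp5d (0.52) and Atp5e (0.51). Atp5l, the membrane subunit g, had 221 and 353 FPKM, a fold of 1.60 (1.55 to 1.64), although 84.8% of its transcript sequence in windows of 50 bases also occurs in other annotated genes, so its value is uncertain. Of the 88 members, 24 had over 10% of such windows in common with another gene, and 10 overlap a gene of the opposite strand, among them Ndufs5, most of whose locus also holds BC002163 (40.8 and 59.0 FPKM). The detected members above that 10% had a median ratio of 0.50 and the other 61 of 0.57. After rescaling, Atp5f1 lay at -0.37.

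The c subunit is encoded by 3 genes that give the same mature protein. Atp5g1 had 71.2 FPKM in the WT-labelled library and 110 in the RON TK-/- labelled library, Atp5g2 had 155 and 220, and Atp5g3 had 206 and 274. Atp5g1, the least abundant, had the highest fold (1.55, 1.49 to 1.62) and Atp5g3, the most abundant, the lowest (1.33, 1.29 to 1.37). Their shares were nearly the same in both libraries, 16.5%, 35.8% and 47.7% in the WT-labelled library and 18.3%, 36.4% and 45.3% in the other. The other 2 genes with Atp5 names were low. Atp5s (factor B) had 0.43 and 2.68 FPKM, a fold of 6.16 (4.23 to 9.25), and Atp5sl, whose product is now known as a complex I assembly factor (Dmac2), had 1.62 and 4.30, a fold of 2.66 (2.29 to 3.10). Both resemble the assembly factors in level, and both are included in the median of complex V (0.63), which is 0.52 without them.

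Other genes of the pathway were read from lists outside the name rule. Complex II together with its assembly factors (6 detected genes) had a median ratio of 0.72. The subunit genes Sdha, Sdhb, Sdhc and Sdhd had ratios of 0.84, 0.53, 0.27 and 0.62. The assembly factors Sdhaf1 and Sdhaf2 had 1.82 and 0.82, so the median is not one of subunits alone. The catalytic subunit Sdha had 48.6 FPKM in the WT-labelled library and 88.2 in the RON TK-/- labelled library. Of the complex II genes 1 was at least 2-fold higher, the assembly factor Sdhaf1 (2.15 and 10.1 FPKM, fold 4.70). Electron carriers and coenzyme Q synthesis genes (14 detected) had a median of 0.66, with 3 at least 2-fold higher and 0 lower, close to the shares of all detected genes (25.6% and 8.71%), which also stand behind the counts of the other lists. Coq9, which presents the precursor of coenzyme Q to Coq7, had 5.90 and 23.0 FPKM and Coq10a, a coenzyme Q binding protein, had 1.23 and 7.01, whereas the cytochrome c gene Cycs had 36.4 and 38.4. Cycs was thus nearly equal in the libraries as deposited (ratio 0.078), and lay at -0.49 measured from the median of all detected genes.

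Assembly genes outside the Ndufaf names were described the same way. The other complex I assembly factors (7 detected) had a median ratio of 0.83 and 3 at least 2-fold higher, which were Tmem126b (3.33 and 13.8 FPKM, fold 4.15), Tmem186 (0.96 and 5.58, fold 5.81) and Ecsit (2.09 and 6.93, fold 3.32). These are members, with Ndufaf1 and Acad9, of the complex that assembles part of the membrane arm. Acad9 itself had 4.56 and 8.86 FPKM, a ratio of 0.83. Complex III assembly genes (4 detected) had a median of 0.85 with 0 at least 2-fold apart on the FPKM + 1 scale, from Ttc19 (5.70 and 5.63 FPKM) to Bcs1l, which inserts the Rieske protein (1.94 and 4.47, a plain fold of 2.30). Complex IV assembly genes (21 detected) had a median of 0.53 with 5 at least 2-fold higher and 0 lower, led by Coa4 (2.10 and 10.3 FPKM), Taco1, the translational activator of the mitochondrially encoded Cox1 subunit (1.33 and 7.11), and Coa6 (4.82 and 17.1), while the copper chaperone Sco1 had 4.04 and 2.61. The list for complex V (assembly factors, the inhibitor Atpif1 and small subunits, 6 detected) had a median of 0.41 with 2 at least 2-fold higher, Atpaf1 (2.56 and 7.81 FPKM) and Atpaf2 (6.06 and 14.7), which chaperone the F1 head, and its lowest ratio was that of Usmg5 (179 and 209). Over all assembly genes outside the name rule, 10 of 35 detected were at least 2-fold higher, a share close to the 25.6% of all detected genes.

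Genes that copy, transcribe and translate mitochondrial DNA had the highest median ratio of the lists, 1.15 over 12 detected genes, and 8 of 12 were at least 2-fold higher as deposited, against 25.6% of all detected genes. Measured from the median of all detected genes, 2 of 12 were, against 8.38%, the elongation factor gene Tsfm (3.24 and 13.9 FPKM) and the initiation factor gene Mtif2 (1.86 and 8.65). The list is low, with a median of mean levels of 4.94 FPKM. Detected genes at 2 to 5 FPKM had a median ratio of 0.78, with 36.4% at least 2-fold higher as deposited (0.70 and 31.9% at 5 to 10 FPKM). The mitochondrial RNA polymerase gene Polrmt had 1.44 and 6.09 FPKM, and Tfam, which packages mitochondrial DNA, had 3.22 and 6.29. The transcripts these factors make, the mitochondrially encoded subunits, were not analysed here.

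Nuclear regulators of the pathway had the lowest median of these lists. Their 6 detected genes had a median ratio of 0.17 with 0 at least 2-fold higher. Ppargc1b, a coactivator known to drive oxidative metabolism in macrophages given interleukin-4, had 3.37 FPKM in the WT-labelled library and 1.19 in the RON TK-/- labelled library, a fold of 0.35 (0.31 to 0.40) and a ratio of -1.0. Its partner Esrra had 16.3 and 13.8 FPKM, Nrf1 had 4.07 and 5.91, and the ETS factor gene Gabpa had 10.5 and 14.4. Ppargc1b was thus lower in the library where Arg1 is abundant and where nearly all members are higher as deposited.

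**Figure D5:**
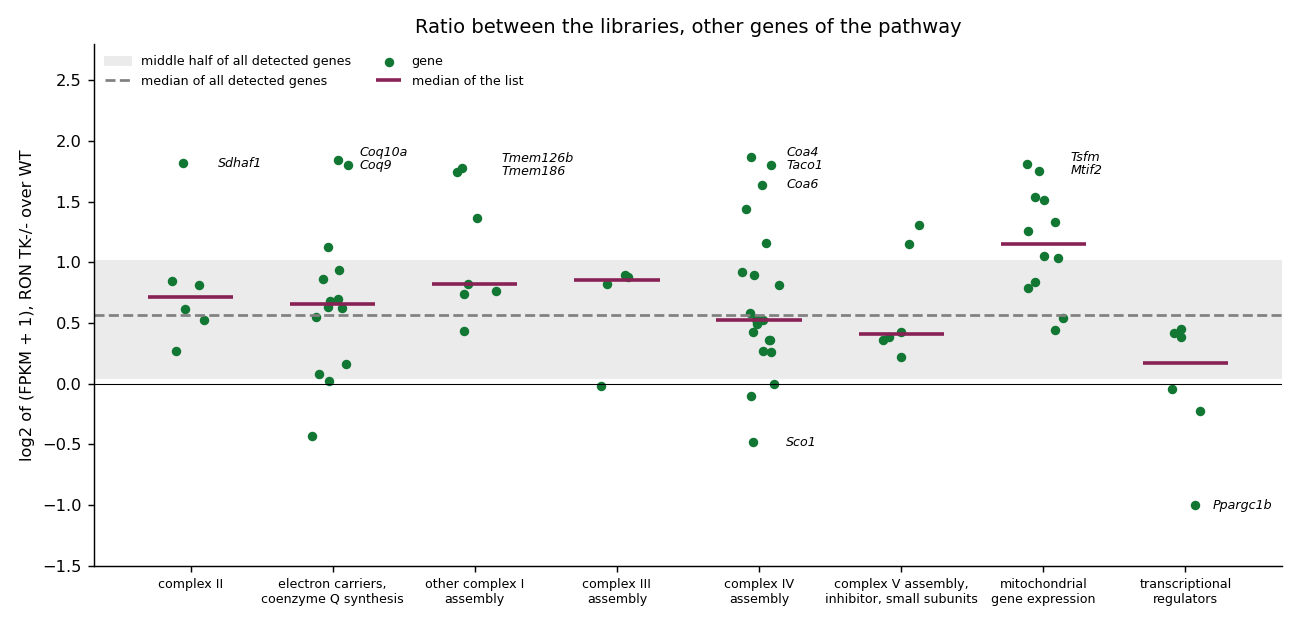
Points give the log2 ratio of FPKM + 1 (RON TK-/- labelled over WT-labelled library) of detected genes in 8 lists outside the name rule, bars the list medians, the dashed line the median of all detected genes (0.57) and the grey band their interquartile range. Genes for mitochondrial gene expression have the highest median (1.15) and transcriptional regulators the lowest (0.17), with Ppargc1b at -1.0.

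Promoter windows of RefSeq were found for 73 of the 88 members. The NRF1 motif was in 16 of 73 (21.9%), against 4.78% of all 27025 promoter windows and 11.2% of the 8513 windows of detected genes. The YY1 motif was in 10 of 73 (13.7%), against 2.88% and 5.0%, and those 10 were 7 complex I subunits and 3 complex V genes. The ETS motif was in 14 (19.2%), against 9.12% and 19.5%, and the Sp1 motif in 32 (43.8%), against 35.9% and 65.7%. A TATA motif was in 7 (9.59%), against 14.2% and 6.93%, and the kappaB motif in 6 (8.22%), against 8.18% and 10.2%. NRF1 and YY1 letters were thus more frequent among the members than among detected genes, and Sp1 letters less frequent, with no test run.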

How the data were processed

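RNA-seq of 2 libraries was analysed, 1 per group (single reads of 50 bases from a TruSeq RNA kit, per the labels' protocols). The authors deposited 1 table per library with an FPKM value per RefSeq transcript, in the column layout of Cufflinks per the file headers. Their deposited coverage column (mean read depth per base) was used for reads per gene (coverage times length over read length). The submitters' processing notes name mm10 and DESeq, with no role. The aligner, the annotation release and the use of strand were not given in the sources used here.

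FPKM rows were summed per symbol (31580 rows, 23444 symbols), with a pseudocount of 1, a minimum of 1 FPKM in either library and thresholds of 2-fold and 1.5-fold. Estimated depth (59.8 M and 67.1 M reads) limits precision by counting error only, and no test was run. The members, lists and rules were chosen with earlier results of these data known. Named were, per group, the 3 most abundant members and the 2 highest and 2 lowest ratios among those with at least 5 FPKM, the complex I core, all Ndufaf genes, all isoform families, members 2-fold apart or at 0, and per pathway list the genes 2-fold apart from the median of all genes, or else its extremes. One complex I gene is not reported here by name. Other genes were named after their values were seen. Loci are as deposited, with starts counted from 1. Shared sequence was counted in 50-base windows of GENCODE M21 transcripts, and promoters came from RefSeq (GRCm38.p6). The procedure was tested on simulated data. Alternatives were pseudocounts of 0.1 and 5, no minimum or 5 FPKM, median and TPM rescaling, the most abundant row only, the 1.5-fold threshold, and complex IV without restricted isoforms or without Ndufa4 and Ndufa4l2. Python 3.11.15 with pandas 2.3.3 and scipy 1.17.1 was used.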

Additional observations from a re-analysis of the deposited data

How the results depend on the processing

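With 1 library per group no replicate could be left out, and no value has a replicate check. No paired analysis was possible because each group has 1 library. Estimated reads limit the low members most, Cox6a2 in the WT-labelled library having about 5. The difference between assembly factors and complex I subunits (0.38) turned with a pseudocount of 5 (-0.11) and a minimum of 5 FPKM (-0.066), and was 0.76 with a pseudocount of 0.1. The median ratio of assembly factors was 1.33 with a pseudocount of 0.1, 0.41 with 5, 0.49 with a minimum of 5 FPKM and 0.45 after median rescaling. A pseudocount of 5 gave 0.36 for complex IV and 0.50 for complex V, a minimum of 5 FPKM gave 0.52 for complex V, and the most abundant row gave 0.57 for complex V. TPM rescaling gave 0.40 for complex III, 0.40 for complex IV and 0.57 for complex V, and complex IV without restricted isoforms was at 0.36. Complex V without Atp5s and Atp5sl, chosen after seeing the data, was at 0.52. The 6 members at least 2-fold apart became 1 with a pseudocount of 5 or median rescaling, 2 with a minimum of 5 FPKM and 37 at 1.5-fold. Median rescaling, which moves the median of all detected genes by 0.57, turned the medians of complex I subunits (-0.089), III (-0.19), IV (-0.20) and V (-0.028). Rescaling divides FPKM before 1 is added, so abundant genes move by more than 0.57, as Atp5a1 does (0.66 to -0.00040). It also turned, by construction of the shift, 27 named genes: Ndufb6 (-0.53), Cox7a2l (-0.46), Ndufa3 (-0.45), Cox6a1 (-0.43), Ndufa4 (-0.41), Atp5f1 (-0.37), Uqcrh (-0.37), Uqcrfs1 (-0.35), Cox7a2 (-0.34), Ndufaf2 (-0.32), Atp5g3 (-0.25), Cox4i1 (-0.24), Uqcr11 (-0.22), Cox6b1 (-0.20), Cox8a (-0.18), Uqcrb (-0.16), Atp5g2 (-0.15), Ndufv3 (-0.12), Ndufaf3 (-0.12), Ndufv2 (-0.077), Ndufa4l2 (-0.077), Ndufs7 (-0.044), Ndufs3 (-0.042), Atp5g1 (-0.028), Uqcrq (-0.019), Cox4i2 (-0.0075) and Atp5a1 (-0.00040). Other settings changed no direction of a group median, and the cause of the values that moved was not tested except where the setting removes genes or shifts all of them.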
